A study of Mus musculus with 6 samples.

Results

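Actin, tropomyosin and contractile cytoskeleton genes were followed in the mouse embryonic stem cell line E14 after knockdown of Tdg, which encodes a DNA glycosylase that removes oxidised cytosines. The set lists 34 genes, chosen by name with earlier results of these data known. For each gene the array row with the highest mean signal over all arrays was taken from the rows that list 1 gene. A row of its own was found for 33 of the 34 genes, out of 19938 named genes on the array. The exception was Actg1, whose rows also list Actb. The mean level only chose the row and was not tested.

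Affymetrix whole-transcript arrays were compared between groups, with 3 control E14 arrays and 3 Tdg knockdown E14 arrays. All cells were cultured on 0.1% gelatin with 15% serum and LIF at 1000 units/ml. The treatment protocol given for every sample was lentiviral infection, 10 vector units per cell (multiplicity of infection), and puromycin at 2 ug/ml from 48 h. The cargo of the control vector is not stated in these sources. The protocol for RNA extraction names Kdm2b as the gene knocked down, against Tdg in the sample titles. Whether replicate arrays stem from separate cultures is not stated, so p-values reflect array-to-array spread that could be technical only.

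Signals are log2 values, on which a difference of 1 is a 2-fold change, and fold changes are knockdown minus control. A gene is said to have risen or fallen where limma's adjusted p, over all named genes, was under 0.05. Signal of Tdg was taken in each array as the mean of the rows that list it, which are shared with the pseudogene Tdg-ps2. That mean was 11.12, 11.20 and 11.10 in the control arrays and 8.24, 8.16 and 7.93 in the knockdown arrays. This leaves 12.2% of the control level (limma, adjusted p 8.79e-05). Correlations between arrays ran from 0.975 to 0.996, and knockdown replicate 3 stood apart on the first principal component, at 31.0 against -17.5 to 5.2 for the other arrays. The 12 embryonic stem cell markers had mean levels of 12.22 to 12.27 in control arrays and 12.22 to 12.29 in knockdown arrays. Pou5f1, Nanog and Sox2, the core pluripotency factors, had control means of 12.54, 12.82 and 12.73. Calls of a rise or fall come from a model that does not pair arrays. Equal replicate numbers had correlated deviations, given with the processing, so a second model, blocked on replicate number, is quoted where it changes a call.

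Actin polymerises into filaments on which tropomyosins lie, and myosin II motors pull on these filaments when their light chain is phosphorylated. Calponins, transgelins and caldesmon bind the filaments, while filamins, α-actinins, vinculin, talin and zyxin crosslink them or tie them to cell adhesions. Many of these genes are known targets of serum response factor, the product of Srf, which binds a DNA element called the CArG box. With myocardin-related cofactors, which are held back by unpolymerised actin, it drives cytoskeletal and muscle genes, and with ternary complex factors such as Elk1 it drives immediate early genes such as Fos. Several of these genes are best known as smooth muscle markers, although embryonic stem cells and other cultured cells express many of them too.

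The CArG box is shown first, because it is the element through which this gene set is known to be linked to Srf. RefSeq promoter windows of GRCm38.p6, from 250 bases before a transcript start to 50 after it, were found for 30 of the 34 genes. No window was available for Actg2, Actb, Tagln and Csrp2. The windows were searched for the strict CArG box, which is CC, then 6 bases that are each A or T, then GG. This pattern is the same on both strands, though a single box need not be. The box was in a window of 8 of these 30 genes (26.7%) and in a window of 488 of all 27025 genes with a window (1.81%). Among named genes on the array with a window it was in 254 of 15614 (1.63%). Because many of the 34 genes are known Srf targets, their higher share is not an independent finding and was not tested. Below are the boxes of the 8 genes, in capitals, with up to 20 bases on each side, written 5′ to 3′ on the strand of the gene.
Acta1 (chr8:123894819-123894868, minus strand): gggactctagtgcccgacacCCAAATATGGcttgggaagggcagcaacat
Actc1 (chr2:114052893-114052942, minus strand): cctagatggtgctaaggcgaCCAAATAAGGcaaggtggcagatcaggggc
Actg1 (chr11:120348556-120348605, minus strand): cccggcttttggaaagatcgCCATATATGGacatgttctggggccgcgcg
Cnn2 (chr10:79988524-79988573, plus strand): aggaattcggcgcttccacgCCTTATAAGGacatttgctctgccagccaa
Myl9 (chr2:156775283-156775332, plus strand): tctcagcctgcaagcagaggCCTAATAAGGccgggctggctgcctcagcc
Myl6 (chr10:128493030-128493079, minus strand): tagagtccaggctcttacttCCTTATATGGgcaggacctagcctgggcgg
Vcl (chr14:20929151-20929200, plus strand): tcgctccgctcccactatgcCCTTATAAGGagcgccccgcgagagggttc
Srf (chr17:46556195-46556264, minus strand): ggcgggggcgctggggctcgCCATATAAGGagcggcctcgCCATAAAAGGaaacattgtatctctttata
The box of Actc1 began 47 bases before the transcript start, that of Myl6 50, that of Cnn2 56, that of Acta1 73, that of Actg1 90, that of Myl9 161 and that of Vcl 227. Srf itself had 2 boxes, the first beginning 82 bases before the start. A match describes these letters only and is not a measured binding site.

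In knockdown cells 5 of the 33 measured genes fell and 0 rose. Those that fell were Tagln, Cald1, Tpm1, Cnn1 and Csrp1, all of which encode proteins that bind actin filaments or, for Csrp1, their crosslinkers. Of all named genes 0.552% were called lower and 0.241% higher. With the replicate block 13 of the 33 were lower and 0 higher, against 2.01% and 1.07% of all named genes. The 8 genes added by the block were Cnn2, Tpm2, Actc1, Flnc, Myh9, Zyx, Myl9 and Acta1 (adjusted p 0.0540 to 0.114 without the block, 0.0283 to 0.0498 with it). The genes were proposed with results of these data known, so these counts describe the set and are not independent evidence of its direction.

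The shift was broad but small. The median log2 fold change of the 33 genes was -0.23, against 0.02 over all named genes. Fold changes were below 0 in 27 genes (43.5% of all named genes were below 0), exactly 0 in Lmod1 and above 0 in 5. In 23 genes all knockdown arrays lay below all control arrays, as in 11.0% of all named genes, and in 0 genes did they lie above, against 7.98%. An unadjusted p under 0.05 with a lower level was found in 20 genes (7.48% of all named genes) and with a higher level in 0 (5.03%). The 33 genes were also brighter, with mean levels of 10.48 to 10.50 in control arrays against 7.98 to 8.03 over all named genes. The shares among genes of like level were not computed. The medians over the 33 genes of the deviation from the control mean were -0.21, -0.17 and -0.23 in the 3 knockdown arrays and -0.01 to 0.00 in the control arrays, so each knockdown array had the shift.

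**Figure D1:**
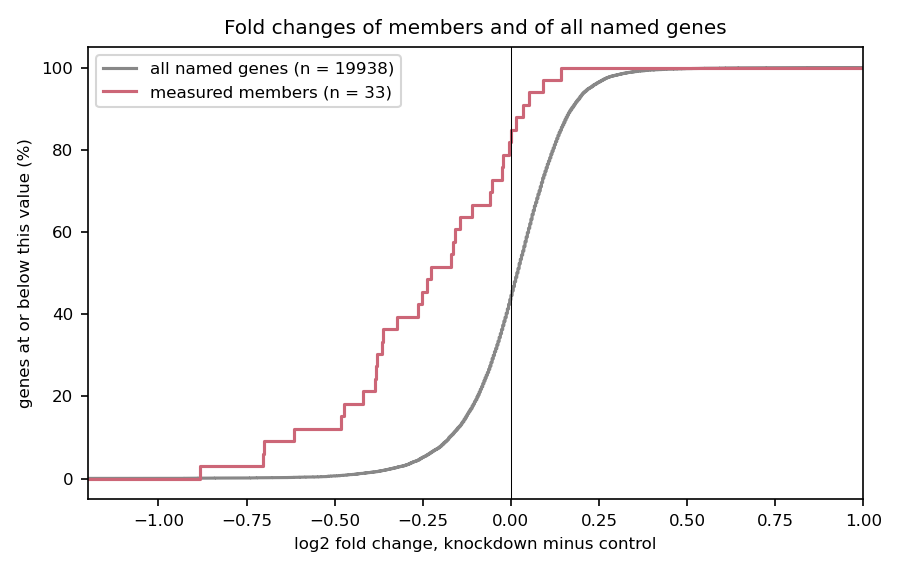
Cumulative share of genes (vertical axis, percent) at or below each log2 fold change of knockdown minus control (horizontal axis), for the 33 measured members (red) and all 19938 named genes (grey). The member curve lies to the left, with a median of -0.23 against 0.02.

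The filament-binding transgelins, calponins and caldesmon held 3 of the 5 called genes. Tagln encodes transgelin, an actin-bundling protein abundant in smooth muscle. Its signal was 9.75, 9.95 and 9.61 in the control arrays and 8.77, 9.08 and 8.81 in the knockdown arrays. The lowest control array thus lay above the highest knockdown array, and the fall of 0.88 (SE 0.12, adjusted p 0.0318) left 54.2% of the control level, the lowest share among the 33 genes. Cald1 encodes caldesmon, which binds actin, tropomyosin and myosin. It had 10.50, 10.45 and 10.39 in control and 9.72, 9.80 and 9.71 in knockdown arrays, a fall of 0.70 (SE 0.06, adjusted p 0.0115). The groups were tight and far apart.

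Cnn1, the calponin typical of smooth muscle, had 9.71, 9.90 and 9.81 in control and 9.08, 9.29 and 9.20 in knockdown arrays. It fell by 0.62 (SE 0.08, adjusted p 0.0326), and within each group the array numbered 1 was the lowest. Cnn2, a calponin of many cell types with a CArG box in its window, had 11.75, 11.78 and 11.64 against 11.26, 11.38 and 11.27. The groups did not overlap, and the difference of -0.42 (SE 0.07) passed only with the block (adjusted p 0.0540, blocked 0.0283). The remaining 2 genes of this kind differed little. Tagln2, the broadly expressed transgelin, showed -0.11 (95% confidence interval -0.26 to 0.04, adjusted p 0.571) and Cnn3, the acidic calponin, -0.05 (-0.20 to 0.10, adjusted p 0.803).

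**Figure D2:**
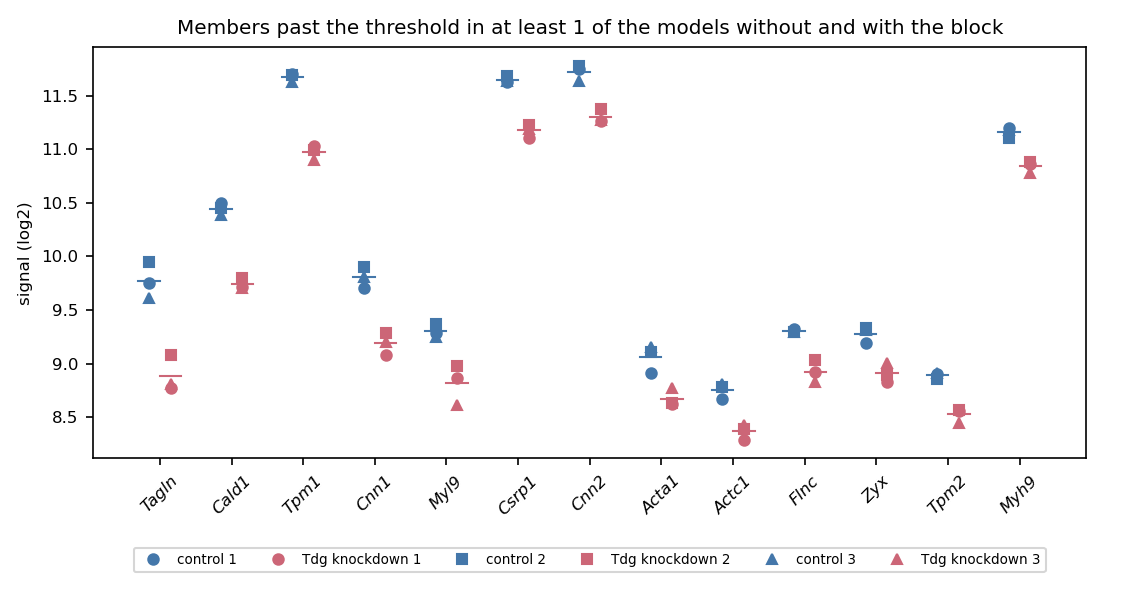
Log2 signal (vertical axis) of the 13 genes past the threshold with the replicate block, 5 of which also passed without it, ordered by fold change, in each control (blue) and Tdg knockdown (red) array, with marker shapes for replicate numbers 1 to 3 and short lines for group means. In all 13 genes the lowest control array lies above the highest knockdown array. Levels of different genes are not comparable.

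Among the tropomyosins, which stiffen filaments and set which motors bind them, 1 of 4 fell and another was lower with the block. The shares of all named genes were 0.552% and, with the block, 2.01%. Tpm1 had 11.70, 11.69 and 11.63 in control and 11.03, 10.99 and 10.90 in knockdown arrays. It fell by 0.70 (SE 0.06, adjusted p 0.0115), or 1.62-fold. Tpm2, best known from muscle, had 8.90, 8.86 and 8.91 against 8.56, 8.57 and 8.45. Its groups did not overlap, and its difference of -0.36 (SE 0.06) passed only with the block (adjusted p 0.0587, blocked 0.0392).

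Tpm4, a tropomyosin of non-muscle cells, had 11.99, 11.94 and 11.97 in control and 11.85, 11.80 and 11.74 in knockdown arrays. The groups did not overlap, but the difference of -0.17 did not pass in either model (adjusted p 0.311, blocked 0.153). Tpm3, another non-muscle form, had 12.68, 12.70 and 12.70 against 12.76, 12.74 and 12.68, and a difference of 0.03 (-0.10 to 0.17, adjusted p 0.868). The 3 further rows of Tpm3 showed 0.01, 0.01 and -0.07. A row that lists Tpm4 with the predicted gene Gm7809 showed -0.12 (adjusted p 0.831 over all rows of the array).

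Of the 5 measured actins none passed without the block, and 2 muscle forms, Actc1 and Acta1, were lower with it (2.01% of all named genes). Messages of this family share much of their coding sequence, so the signal of single isoforms is uncertain. Actc1, the cardiac α-actin, had 8.67, 8.78 and 8.81 in control and 8.29, 8.39 and 8.43 in knockdown arrays. Acta1, the skeletal α-actin, had 8.91, 9.11 and 9.16 against 8.62, 8.63 and 8.77. The groups of both genes did not overlap, and both have a CArG box close to the start. Their differences of -0.38 (SE 0.07, adjusted p 0.0699, blocked 0.0292) and -0.39 (SE 0.09, adjusted p 0.114, blocked 0.0368) passed only with the block.

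Acta2, the smooth muscle α-actin, had 9.74, 9.79 and 9.81 in control and 9.57, 9.68 and 9.60 in knockdown arrays. The groups did not overlap, and the difference of -0.16 (-0.31 to -0.02) did not pass in either model (adjusted p 0.346, blocked 0.161). Actb, the cytoplasmic β-actin, had 13.62, 13.64 and 13.64 against 13.64, 13.65 and 13.65, with a difference of 0.01 (-0.12 to 0.14, adjusted p 0.950). Its signal was near the top of the range of this array (highest value 14.03). The part that saturation could have in this small difference was not tested. The 4 rows shared by Actg1 and Actb ran from -0.04 to -0.02. Actg2, the enteric γ-actin, was at 6.15, 6.14 and 6.21 in control and 6.20, 6.10 and 6.63 in knockdown arrays. Only knockdown replicate 3 was high, and the difference was 0.14 (-0.17 to 0.46, adjusted p 0.748). No detection call was used here, so it is not known whether a row as dim as that of Actg2 lay above background.

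Of the myosin II genes none passed without the block. Myl9, a regulatory light chain whose phosphorylation triggers contraction, had 9.29, 9.37 and 9.25 in control and 8.87, 8.98 and 8.61 in knockdown arrays. Knockdown replicate 3 was the lowest of the non-overlapping groups, and the difference of -0.48 (SE 0.10) passed only with the block (adjusted p 0.0963, blocked 0.0321). Myh9, the heavy chain of non-muscle myosin IIA, had 11.20, 11.11 and 11.18 against 10.86, 10.88 and 10.78. Its groups did not overlap, and its difference of -0.32 (SE 0.06) passed narrowly with the block (adjusted p 0.0828, blocked 0.0498). A second, dimmer row of Myh9 showed -0.41 (SE 0.20), with groups that overlapped at 7.04 to 7.61 and 6.69 to 7.22.

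Myh10, the heavy chain of myosin IIB, had 10.72, 10.63 and 10.62 in control and 10.49, 10.50 and 10.30 in knockdown arrays. It did not pass in either model (-0.23, adjusted p 0.283, blocked 0.108), though its groups did not overlap. Myl6, the essential light chain, which has a CArG box in its window, differed by -0.03 (-0.17 to 0.12, adjusted p 0.902). The 5 other rows of Myl6 ran from -0.07 to -0.05. Mylk, the kinase that phosphorylates the regulatory light chain, was at 6.79 to 6.89 in control and 6.87 to 6.95 in knockdown arrays (0.05, -0.10 to 0.20, adjusted p 0.812).

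All 7 crosslinkers and adhesion linkers were lower in every knockdown array than in any control array, as were 11.0% of all named genes. None passed without the block and 2 passed with it, against 0.552% and 2.01% of all named genes called lower. Flnc, the filamin of muscle, had 9.32, 9.30 and 9.30 in control and 8.92, 9.03 and 8.83 in knockdown arrays (-0.38, SE 0.07, adjusted p 0.0699, blocked 0.0392). Zyx encodes zyxin, a LIM protein of focal adhesions. It had 9.19, 9.33 and 9.31 against 8.83, 8.89 and 9.01 (-0.37, SE 0.08, adjusted p 0.0907, blocked 0.0368). Knockdown replicate 3 was the lowest array of its group for Flnc and the highest for Zyx.

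Vcl encodes vinculin, which ties actin to integrin and cadherin adhesions. It had 11.05, 10.95 and 10.93 in control and 10.78, 10.76 and 10.60 in knockdown arrays (-0.26, adjusted p 0.193, blocked 0.0698). Flna, the broadly expressed filamin, had 11.84, 11.71 and 11.72 against 11.51, 11.57 and 11.43 (-0.25, adjusted p 0.178, blocked 0.0885). Tln1 encodes talin, which links integrins to actin. It had 10.22, 10.20 and 10.20 against 10.02, 10.08 and 10.04 (-0.16, adjusted p 0.308, blocked 0.162). These 3 genes missed the threshold in both models. The α-actinins Actn1 and Actn4, which bundle filaments, showed -0.14 (-0.29 to 0.00, adjusted p 0.406) and -0.06 (-0.19 to 0.07, adjusted p 0.749).

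Csrp1 was the called gene of the LIM proteins and encodes a protein that binds α-actinin and zyxin. It had 11.63, 11.68 and 11.64 in control and 11.11, 11.23 and 11.19 in knockdown arrays. It fell by 0.47 (SE 0.06, adjusted p 0.0318), and its groups were widely separated. Its relative Csrp2 had 11.65, 11.72 and 11.68 against 11.62, 11.72 and 11.69, a difference of -0.01 (-0.15 to 0.14, adjusted p 0.979). Pdlim7, a PDZ and LIM protein of stress fibres, had 10.13, 10.16 and 10.21 against 9.89, 9.94 and 9.96. Its groups did not overlap, but it did not pass in either model (-0.24, adjusted p 0.148, blocked 0.0717). Pdlim5 differed by -0.02 (-0.17 to 0.13, adjusted p 0.915). Lmod1, a smooth muscle leiomodin that nucleates filaments, had a difference of 0.00 (-0.21 to 0.21) at a level of 7.22 to 7.51 over the 6 arrays.

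Srf itself was not lower. Its signal was 9.77, 9.82 and 9.86 in control and 9.83, 9.99 and 9.90 in knockdown arrays, which overlap (0.09, -0.07 to 0.25, adjusted p 0.683). Activity of the Srf protein was not measured here.

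**Figure D3:**
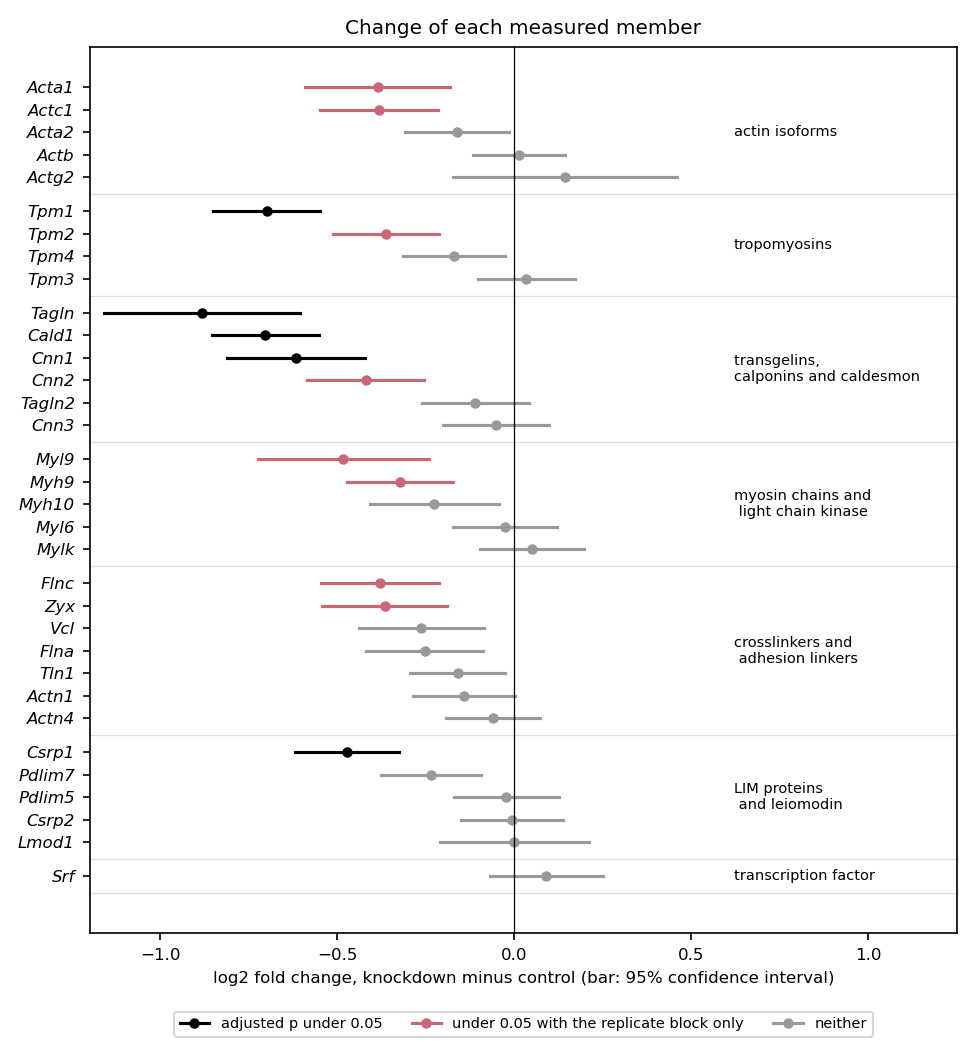
Log2 fold change of knockdown minus control (horizontal axis) with its 95% confidence interval for each of the 33 measured members, grouped by role. Black marks the 5 genes past the threshold, red the 8 that passed only with the replicate block and grey the other 20. Intervals of Tagln, Cald1, Tpm1, Cnn1 and Csrp1 end well below 0, while those of Actb, Tpm3, Csrp2 and Srf span it.

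Relatives within a family were compared array by array in 12 pairs chosen after their values were seen, mostly a lower gene and a relative that differed less, so the differences are described and not tested, and the choice largely fixes their direction. Tpm1 minus Tpm3 was -0.98, -1.01 and -1.07 in the control arrays and -1.73, -1.75 and -1.78 in the knockdown arrays, a shift of -0.73. Csrp1 minus Csrp2 was -0.02, -0.04 and -0.04 against -0.51, -0.49 and -0.50, a shift of -0.47. Within each group these differences varied less between arrays than the shift. Tagln minus Tagln2 shifted by -0.77, Cnn1 minus Cnn3 by -0.56 and Myl9 minus Myl6 by -0.46. The groups met for Myh9 minus Myh10, at 0.48 to 0.56 in control and 0.37 to 0.48 in knockdown arrays.

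**Figure D4:**
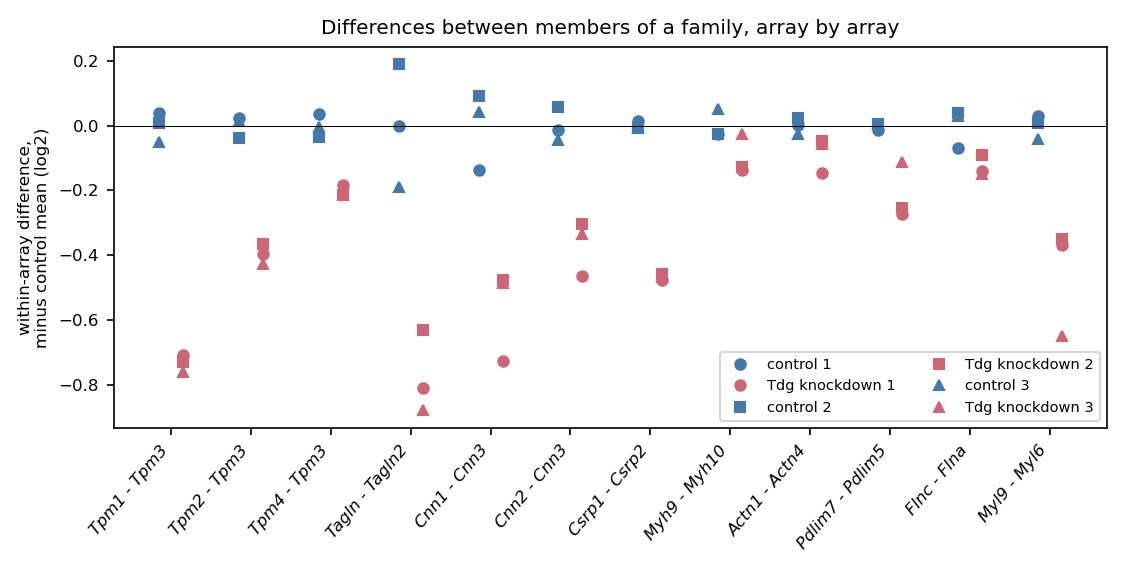
Difference in log2 signal between 2 members of a family within each array, minus the control mean of that difference (vertical axis), for 12 pairs in control (blue) and Tdg knockdown (red) arrays, with marker shapes for replicate numbers. The shift is -0.73 for Tpm1 minus Tpm3 and -0.77 for Tagln minus Tagln2, and the groups of Myh9 minus Myh10 touch at 0.48 before centring.

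Among genes with a CArG box in the window, 4 of the 12 with a window that passed with the block had one (33.3%), as did 3 of the other 17 measured genes with a window (17.6%). Actg1, which has a box but no row of its own, is in neither count. Of the 5 called genes, 4 have a window and 0 of these hold the strict box, while Tagln has no window in the table. Srf sites outside the window and boxes with other letters were not searched.

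Genes around this set in the actin pathway were taken from 5 lists with 80 genes, of which 75 had a row. Of these, 2 rose and 0 fell, and with the block 4 were higher and 3 lower. Over all named genes 0.241% rose and 0.552% fell, and with the block 1.07% were higher and 2.01% lower. The 2 that rose were Egr1 and Fos, immediate early transcription factors in the list of 9 Srf targets of that kind. Egr1 had 9.97, 9.94 and 10.08 in control and 10.81, 10.85 and 10.86 in knockdown arrays (0.84, SE 0.06, adjusted p 0.00803). Fos had 7.02, 7.04 and 7.41 against 7.89, 7.99 and 8.11 (0.84, SE 0.12, adjusted p 0.0360). Both had higher levels in each knockdown array. Egr2 (0.51, adjusted p 0.0871, blocked 0.0336) and Fosb (0.30, adjusted p 0.0963, blocked 0.0441) passed with the block. The median over this list was 0.30, opposite in sign to the -0.23 of the contractile genes. Both lists were chosen with earlier results of these data known, so their signs are not independent evidence, and the difference was not tested.

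The 8 cofactors and partners of Srf had a median of -0.04 and none passed in either model. Mrtfa, the cofactor that actin monomers hold back, had 9.12, 9.25 and 9.25 in control and 9.12, 9.24 and 9.25 in knockdown arrays (0.00, -0.17 to 0.16, adjusted p 0.990). Mrtfb showed 0.06 (-0.09 to 0.21). The smallest p were those of Elk3, a ternary complex factor known as a repressor (-0.30, adjusted p 0.0949, blocked 0.0512), and of Scai, a suppressor of these cofactors (-0.29, -0.69 to 0.11, adjusted p 0.582).

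Genes of filament assembly and turnover had a median of -0.03 over 31 genes. None passed without the block, and 2 were lower with it, as were 2.01% of all named genes. Pfn2, a profilin that supplies actin monomers, had 8.93, 8.71 and 8.69 in control and 8.12, 8.15 and 7.74 in knockdown arrays (-0.77, SE 0.13, adjusted p 0.0520, blocked 0.0202). Cap2, a cyclase-associated actin-binding protein, showed -0.35 (adjusted p 0.0845, blocked 0.0368). Of 18 other crosslinkers and membrane linkers (median -0.07) none passed without the block, and Lpp, a relative of zyxin, was lower with it (-0.72, SE 0.17, adjusted p 0.131, blocked 0.0246), while the palladin gene Palld showed -0.22 (adjusted p 0.160). Lpp varied widely within groups, from 10.42 to 10.94 in control and from 9.62 to 10.13 in knockdown arrays. Of 9 further myosin genes (median -0.06) none passed in either model, with Myo1e at -0.23 (adjusted p 0.378) and Myl12b at -0.12 (adjusted p 0.447).

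**Figure D5:**
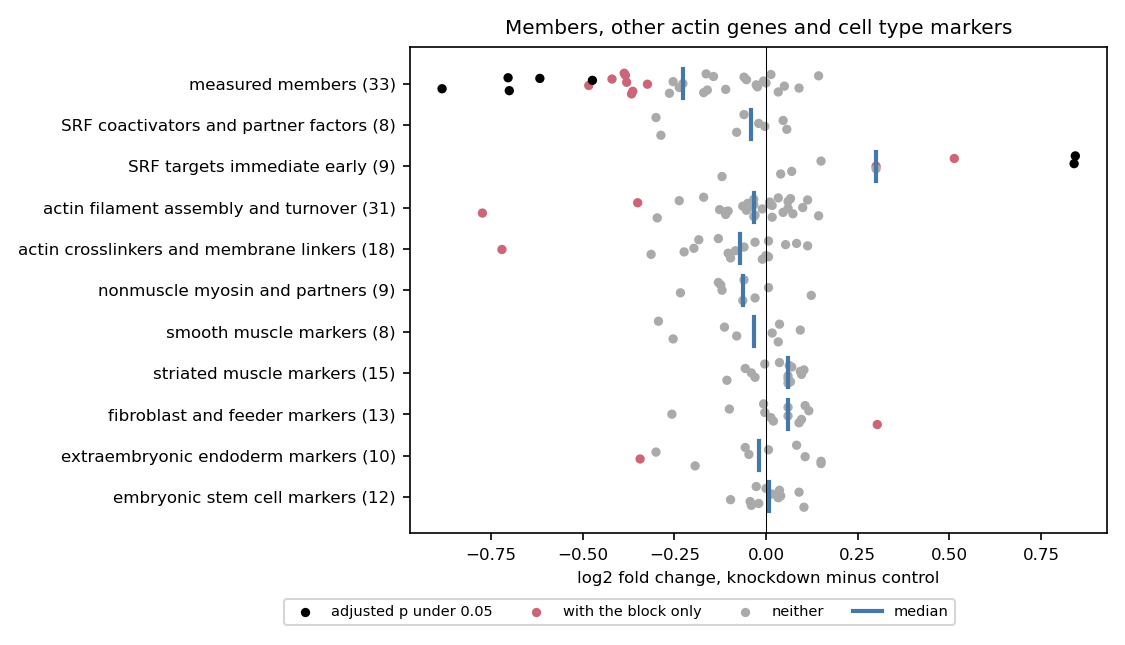
Log2 fold change of knockdown minus control (horizontal axis) of each measured gene in the contractile set, in 5 lists of related actin genes and in 5 lists of cell type markers, with the number of genes in brackets and the median as a blue bar. Black points passed the threshold, red points passed with the replicate block only and grey points passed in neither model. The medians are -0.23 for the contractile set and 0.30 for the immediate early Srf targets, and lie between -0.07 and 0.06 in the other lists.

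Several of the genes are also markers of muscle and fibroblasts, so lists of these cells were set beside them. In bulk RNA fewer cells of a type and less RNA per cell cannot be told apart. The 8 other smooth muscle markers had mean levels of 7.28 to 7.34 in control and 7.19 to 7.31 in knockdown arrays, and none passed in either model. Desmin (Des) showed -0.29 (adjusted p 0.119) and smoothelin (Smtn) -0.25 (adjusted p 0.133), while the defining heavy chain Myh11 was at 6.86 to 7.01 in control and 6.87 to 7.21 in knockdown arrays (0.09, adjusted p 0.775). The 15 striated muscle markers had mean levels of 7.32 to 7.43 and 7.31 to 7.52 and none passed in either model, with Myl4 at 0.10 and Myl7 at 0.09.

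The 13 fibroblast and feeder markers had mean levels of 7.15 to 7.31 in control and 7.17 to 7.44 in knockdown arrays. None passed without the block. Vimentin (Vim) was higher with it (0.30, adjusted p 0.0751, blocked 0.0437), and Pdgfrb showed -0.26 (adjusted p 0.143). The 10 extraembryonic endoderm markers had mean levels of 8.05 to 8.18 and 8.02 to 8.18. Lamb1 was lower with the block (-0.34, adjusted p 0.0843, blocked 0.0474), and Dab2 showed -0.30 (adjusted p 0.196). Of the 12 embryonic stem cell markers none passed in either model, with Klf4 at 0.09 and Sox2 at -0.10. The mean levels of these 5 marker lists overlapped between the groups. That of the 33 contractile genes was 10.48 to 10.50 in control and 10.22 to 10.28 in knockdown arrays. The muscle and fibroblast lists had lower mean levels, and dim rows may hold background. Knockdown arrays all lay below the controls for Smtn, Des (2 of 8), Pdgfrb (1 of 13), Dab2, Sparc and Lamb1 (3 of 10). They lay above for Myl4 (1 of 15), Vim (1 of 13) and Klf4 (1 of 12). Over all named genes 11.0% lay below and 7.98% above. The part of other cell types in the result was not tested.

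The calls rest on few arrays. When any 1 of control replicates 1, 2 and 3 or knockdown replicates 1 and 2 was left out, limma called 0 of the 33 genes, with 16, 17, 17, 18 and 21 of them, in that order, lower at an unadjusted p under 0.05. Of all 19938 named genes the same refits called 0, 0, 15, 0 and 4, so few calls were left anywhere on the array. At an unadjusted p under 0.05, in either direction, these refits held 1682, 1510, 1994, 1958 and 2751 of all named genes. Without knockdown replicate 3, the array that stood apart, 7 were lower (0.797% of all named genes), among them all 5 called genes. The fold changes moved little in these refits, from -0.98 to -0.79 for Tagln, -0.73 to -0.68 for Cald1, -0.73 to -0.66 for Tpm1, -0.67 to -0.56 for Cnn1 and -0.50 to -0.44 for Csrp1.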

How the data were processed

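RNA abundance was measured on 3 control and 3 Tdg knockdown arrays. The authors deposited log2 signals, 1 per probe set and array, for which the submitters' processing notes name Affymetrix Expression Console. Neither version nor summarisation nor normalization is stated there. Values ran from 2.26 to 14.03 (column medians 7.41 to 7.48), which gave the log2 scale, and no further normalization was applied. With 3 arrays a group, their number limits the precision.

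Of 35557 rows, 21789 list 1 gene, 1621 several and 12147 none, and 21698 of the first were matched by gene identifier to RefSeq (GRCm38.p6), used for names. The brightest row per symbol left 19938 named genes. Groups were compared with limma 3.58.1 in R 4.3.3 (two-sided, Benjamini-Hochberg over all named genes, threshold 0.05). The procedure was also run on simulated data with independent noise in each array, unlike the correlated deviations of the real arrays. No result given here rests on that run. Deviations from the group means correlated at 0.61, 0.23 and 0.70 between arrays with the same number, all over the criterion of 0.1. The second model, with the replicate block, therefore treated the numbers as pairs, although no label says what they share. Calls of a rise or fall come from the model without pairs. Members, roles and lists were chosen with earlier results of these data known. All members are accounted for. Those past the threshold in either model, those with an unadjusted p under 0.05 and groups that do not overlap, and at least 1 per role are given with every array. Each other list contributes its called genes (at most 4 per direction) or, with none called, its 2 genes of smallest p; values of Mrtfa, Mrtfb and Myh11 and genes passing only with the block were added after values were seen. Lists were not tested as sets, and 1 further list is not reported here. Alternatives were the block, quantile normalization, median centring, a filter on dim rows, another variance prior, array weights, mean rows, all rows, and arrays left out.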

Additional observations from a re-analysis of the deposited data

How the results depend on the processing

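The 5 calls kept their direction in every alternative, and all 5 were called with the block, quantile normalization, median centring, the dim-row filter, the trended and robust prior, array weights or mean rows. The filter drops the lowest of 3 equal classes of mean level. Counts of contractile genes called lower were 13 with the replicate block (2.01% of all genes tested called lower), 8 with quantile normalization (0.642%), 10 with the dim-row filter (1.65%), 13 with the trended and robust prior (1.53%), 15 with array weights (4.92%), 0 with all rows tested (0.0502%, and 20 at an unadjusted p under 0.05) and 2, Cald1 and Tpm1, without both arrays numbered 3 (0.331%). Leaving out 1 array gave 0 to 7 (0% to 0.797%). With all rows tested, 2142 of the 19938 named genes had an unadjusted p under 0.05 in either direction. Over all named genes 158 were called, 614 with the replicate block, 351 with the dim-row filter, 446 with the trended and robust prior, 1633 with array weights, 12 with all rows tested and 0 to 291 leaving out 1 array (limma, 1510 to 2924 at an unadjusted p under 0.05). Of the other actin pathway genes 2 were called, 7 with the replicate block, 4 with the dim-row filter, 7 with the trended and robust prior, 12 with array weights, 1 with all rows tested and 0 to 3 leaving out 1 array. Array weights used limma's gene-by-gene method, since the default did not converge. At 2 decimals the sign turned for 3 genes that were not called: Csrp2 (-0.028 to 0.022 leaving out 1 array), Actg2 (-0.017 to 0.25) and Pdlim5 (-0.048 to 0.012, with 0.0071 under array weights and 0.03 without both arrays numbered 3). The causes were not tested. No detection calls were used, so dim rows may hold background.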
